A study of Mus musculus with 35 samples.

Results

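The replication-dependent histone genes code for the linker histone H1 and the core histones H2A, H2B, H3 and H4, and most lie in clusters. They were taken as the rows of the count table whose Ensembl identifier maps to a protein-coding mouse symbol beginning with Hist1h to Hist4h and a histone class. Of 53379 rows, 67 met this rule: 6 H1, 18 H2A, 18 H2B, 12 H3 and 13 H4 genes. Another 3 matching symbols were pseudogenes and were not counted as members. In GENCODE M21 (GRCm38), 54 genes lie in the Hist1 cluster on chromosome 13 between positions 21715763 and 23934851. The Hist2 cluster on chromosome 3 holds 10 genes between 96219865 and 96270132, chromosome 11 holds 2 and chromosome 6 holds 1.

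Core histones form the octamer around which DNA is wound, and H1 binds the linker DNA between nucleosomes. Dividing cells transcribe these genes mainly in S phase, when new chromatin is packed. Their typical mRNAs have no introns and end in a conserved stem-loop bound by the stem-loop binding protein (Slbp) in place of a poly(A) tail. Libraries primed on poly(A) therefore miss most of them. The libraries here were made from total RNA depleted of ribosomal RNA, which keeps mRNA without a tail. A few members, among them Hist1h1c, Hist1h2bc and Hist2h2be, are known to also give polyadenylated transcripts in cells that have left the cycle.

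All mice carried orthotopic pancreatic tumors grown from T110299 cells, a line from the tumor of a mouse with Ptf1a-Cre and p53fl/R172H, in C57BL/6 hosts. Poly(I:C)c, a complex of the double-stranded RNA poly(I:C) with the carrier PEI, was injected intravenously at 50 µg on days 18 and 20 after tumor induction. Controls are labelled untreated: the treatment protocol in the labels and the study's methods name glucose as the control, while its results describe these mice as left untreated. After magnetic enrichment of CD11b+ cells, polymorphonuclear myeloid-derived suppressor cells (PMN-MDSC, CD11b+ Ly6C-low Ly6G+) and monocytic ones (M-MDSC, CD11b+ Ly6C-high Ly6G-) were sorted from spleen and tumor. Each of the 8 groups of MDSC held 4 libraries, except treated splenic PMN-MDSC and treated tumor M-MDSC with 3 each. Another treated tumor M-MDSC library held 10 counts and was left out. Bulk tumor lysed without sorting was measured in 4 untreated samples only. The tumor line is a single line, and bulk tumor mixes tumor cells with host cells. A group held as many libraries as mice are described for it, so that each library is taken as 1 mouse. The labels number the libraries alike across groups, so groups probably share mice. The columns of the count table carry other running numbers and were not tied to those of the labels by their order. The groups were fitted as independent, so a pairing by mouse was not used.

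The 30 MDSC libraries held 793070 to 4357105 counts (median 2459368) and the 4 bulk tumor libraries 3771590 to 8886115. The members took 470 counts in the shallowest library, an untreated tumor M-MDSC library, and 20537 at most. Levels are given in CPM, the counts of a gene per 1000000 counts of its library. A count of 3 equals 3.78 CPM in that shallowest library and 0.689 CPM in the deepest MDSC library. These limits cover counting error only. Cell identity was checked with marker genes. The neutrophil list summed to 32990 ± 7765 CPM (SD, n = 4) in untreated splenic PMN-MDSC and 3903 ± 1697 CPM in tumor PMN-MDSC. Ly6g, the gene of the sorted surface marker, read 34.5, 49.8, 51.8 and 84.7 CPM in the splenic libraries and 0, 0.948, 1.63 and 9.19 CPM in the tumor libraries. The macrophage list summed to 11699 ± 1491 CPM in untreated tumor PMN-MDSC, against 5553 ± 2065 CPM in tumor M-MDSC. The label PMN-MDSC is therefore used below for the gate, since the tumor libraries of this gate were low in the genes that define neutrophils.

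The stem-loop was read in the transcript models of GENCODE M21, because it is the feature that sets the members' 3′ ends. A stem of 6 base pairs (Watson-Crick or G with T) around a loop of 4 bases, in the histone pattern, was found in 46 of 67 members and in 27 of 21834 other protein-coding genes (0.124%). The form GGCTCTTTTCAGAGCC stood in 26 members, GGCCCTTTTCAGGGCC in 7 and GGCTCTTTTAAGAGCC in 6. The annotated transcript ended within 100 bases after the stem-loop in 23 members and ran on further in another 23. Here are the stem-loops of the members on which the results below turn, 5′ to 3′ on the coding strand, with the stem and loop in capitals.
Hist1h1c: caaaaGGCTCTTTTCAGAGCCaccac
Hist1h1e: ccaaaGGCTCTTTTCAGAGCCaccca
Hist2h2aa2: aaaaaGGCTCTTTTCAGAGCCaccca
Hist2h2ac: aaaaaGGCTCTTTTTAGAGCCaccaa
Hist1h2ao: aaaaaGGCTCTTTTCAGAGCCatcca
Hist1h2be: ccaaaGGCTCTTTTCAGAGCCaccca
Hist1h3b: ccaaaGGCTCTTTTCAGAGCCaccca
Hist1h4d: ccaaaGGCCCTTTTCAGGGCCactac
Hist1h4m: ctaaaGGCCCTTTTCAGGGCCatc
Hist2h4: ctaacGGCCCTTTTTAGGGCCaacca

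The annotated model of Hist2h2aa2 ran 35 bases past its stem-loop, that of Hist1h2ao 31 and that of Hist1h3b 51. By contrast the model of Hist1h1c ran on for 840 bases, that of Hist1h1e for 1153, that of Hist1h4d for 770 and that of Hist2h4 for 1257. The H1, H2A, H2B and H3 members shown here carry a stem that opens with GGCTCT, whereas those of the 3 H4 members open with GGCCCT. Hist1h2bc, Hist2h2be, Hist2h2bb and Hist2h2ab had no match of the stem-loop in their models. Some models are short, such as those of Hist2h2bb (381 bases) and Hist1h4k (312 bases), and may end before it. A missing match therefore does not show that the mRNA lacks a stem-loop.

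RefSeq promoters (GRCm38.p6, 250 bases before to 50 after the start) were matched for 62 members. The CCAAT motif, searched on both strands, stood in 53 of them (85.5%, against 37.9% of all 27025 promoters). TATAA stood in 49 (79%, against 25.5%), and the octamer ATTTGCAT in 13 (21%, against 1.75%). All 6 H1, 18 H2A, 16 H2B and 10 H3 promoters held CCAAT, but 3 of 12 H4 promoters did. The octamer was found in 7 H2A and 6 H2B promoters and in none of the H1, H3 and H4 promoters. A match is a run of letters, not a site shown to be bound. The 250 bases before the start of Hist1h4d (chr13:23581318-23581567, plus strand) and Hist2h2ac (chr3:96220881-96221130, minus strand) are shown because these genes moved in opposite directions in bulk tumor. Capitals mark the 3 motifs on either strand.
Hist1h4d: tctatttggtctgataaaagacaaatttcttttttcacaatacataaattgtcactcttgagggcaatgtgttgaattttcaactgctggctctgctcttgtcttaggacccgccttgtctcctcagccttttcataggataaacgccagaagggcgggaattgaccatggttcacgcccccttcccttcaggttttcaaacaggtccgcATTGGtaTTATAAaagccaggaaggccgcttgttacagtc
Hist2h2ac: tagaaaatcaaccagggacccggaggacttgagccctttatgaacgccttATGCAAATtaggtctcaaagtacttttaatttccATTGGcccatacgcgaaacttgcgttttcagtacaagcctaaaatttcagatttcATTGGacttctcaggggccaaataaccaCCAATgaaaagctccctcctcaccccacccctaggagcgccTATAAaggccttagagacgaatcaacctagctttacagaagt

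Many members are near copies, and the counting may split or drop reads between them. In 30 of 67 members over 50% of all 50-base stretches of the exons occurred in another gene, and 7 members shared none. All stretches of Hist2h2aa2 (chr3:96239749-96240276, minus strand) occurred in Hist2h2aa1, to which 1 read was assigned over all libraries, so its value is best read as that of the pair. Hist1h2ao shared 93.5% of its stretches with Hist1h2ap, Hist1h4m 89.8% with Hist1h4n and Hist1h2bq 97.3% with Hist1h2br. Hist1h1c (ENSMUSG00000036181.2, chr13:23738808-23740367, plus strand) shared 8.54% and Hist1h4d (chr13:23581598-23582735, plus strand) 10.2%. The model of Hist1h1e overlaps that of Hist1h2be on the same strand, so reads of this pair cannot be fully told apart. Hist2h3c1 was at 0 in all libraries.

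Per kb of exon and averaged over the 8 MDSC groups, the H2A gene Hist2h2aa2 stood highest with 560 CPM per kb, followed by the H1 gene Hist1h1c with 316. The H2A gene Hist1h2ao reached 197 and the H1 gene Hist1h1e 144 CPM per kb. The highest H2B gene was Hist2h2bb (111 CPM per kb), the highest H4 gene Hist1h4d (83.4) and the highest H3 gene Hist1h3b (58.9). The single member with the most counts held 22% of the members' summed CPM, and the top 10 held 72.4%. The signal of the family was thus carried by few genes.

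Summed over all 67 members, the level was highest in M-MDSC from spleen. Untreated libraries of this group read 3731, 4070, 4889 and 5529 CPM, a mean of 4555 ± 811 CPM (SD, n = 4). Untreated splenic PMN-MDSC read 1813, 1875, 2283 and 2295 CPM, a mean of 2066 ± 258 CPM. Both tumor groups were lower: PMN-MDSC read 924, 966, 1061 and 1121 CPM and M-MDSC 593, 634, 1024 and 1075 CPM. The ranges of the 2 splenic groups did not overlap each other or those of the tumor groups, while the 2 tumor groups overlapped. Bulk tumor read 1148, 1374, 1424 and 1670 CPM, above each untreated tumor MDSC library. These sums are given as description, with no test.

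**Figure D1:**
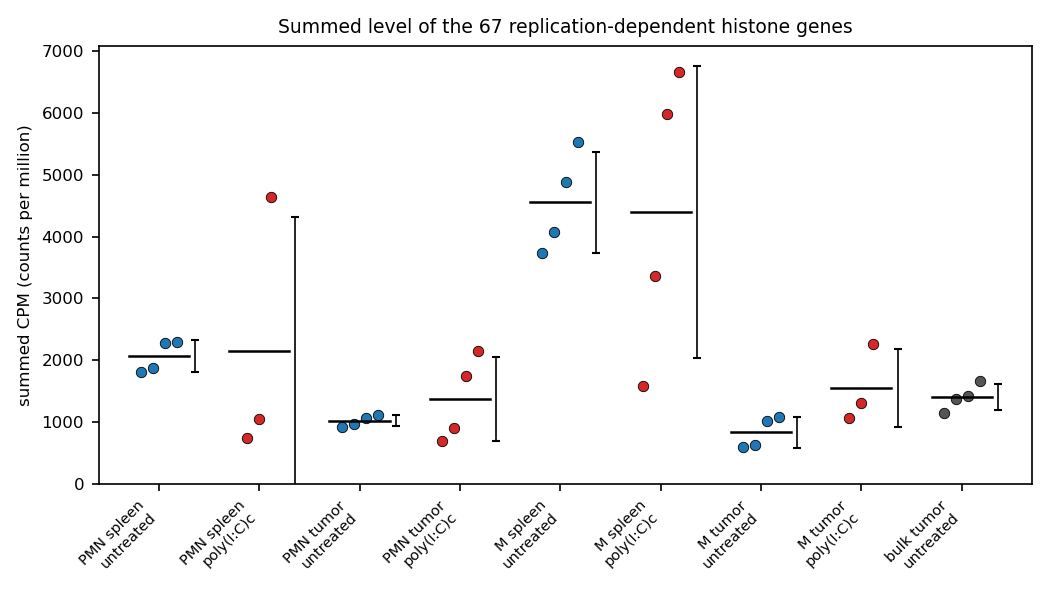
Summed CPM of the 67 members (y axis, linear) for the 9 groups (x axis); each point is a library, blue untreated, red poly(I:C)c and grey bulk tumor, the horizontal line is the mean and the bar the SD, cut at 0. Untreated splenic M-MDSC libraries lie between 3731 and 5529 CPM, all above the untreated libraries of the other groups, and in treated splenic PMN-MDSC a single library at 4647 CPM stands above the other two at 738 and 1041 CPM.

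The sum of the replication-independent list, 11 other histone genes with variants such as H2afx and Cenpa, did not follow this order. It was 1194 CPM in untreated splenic PMN-MDSC, 1492 CPM in tumor PMN-MDSC, 1651 CPM in splenic M-MDSC and 1672 CPM in tumor M-MDSC. Bulk tumor gave 1188 CPM. Within the list, H2afx did read lower in tumor. Its means were 65.7 CPM in splenic and 13.3 CPM in tumor M-MDSC, and 28.1 and 15.8 CPM in PMN-MDSC. In bulk samples and sorted pools alike, fewer cells that express a gene and less of its RNA per cell cannot be told apart.

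In untreated mice, M-MDSC from tumor held much less histone mRNA than M-MDSC from spleen, and this was seen in all 5 classes. Of 40 members that passed a filter of a mean count of at least 25, 36 were lower in tumor at an edgeR adjusted p under 0.05 and none higher. Over all 8298 genes tested, 12.7% were lower and 15.7% higher. The median log2 fold change of the members was -2.38 (range -3.68 to -0.72), beside 0.02 for all genes. A member that passed the filter only through the group where it is high had to differ, so such counts are a description of the members that passed. Of the 36, 35 had no overlap between the libraries of the 2 groups, Hist1h3d being the exception. Of all 1055 genes called lower, 98.6% had no overlap either.

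Other cell markers moved with this comparison. The neutrophil list summed to 4112 to 10331 CPM in untreated splenic M-MDSC and 258 to 842 CPM in tumor M-MDSC. The neutrophil progenitor list gave 104 to 254 CPM in spleen and, in the tumor libraries from the lowest to the highest histone sum, 3.78, 19.8, 84.6 and 139 CPM. The macrophage list was higher in tumor, with 3369 to 8319 CPM against 807 to 1052 CPM. So was the tumor epithelium list, with 13.7 to 234 CPM against 0.527 to 8.28 CPM. The B cell list was higher in spleen (107 to 234 CPM against 39.1 to 83.2 CPM), as was the erythroid list (28.3 to 60.5 CPM against 0 to 18.9 CPM). Their part in the difference of the histone genes was not tested.

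Among the linker histones, Hist1h1c read 767, 784, 1069 and 1234 CPM in splenic M-MDSC and 175, 192, 222 and 275 CPM in tumor M-MDSC. Every tumor library lay below every splenic library, and the log2 fold change was -1.90 ± 0.185 (SE, adjusted p = 1.4e-05, edgeR). Hist1h1d fell by 2.54 on the log2 scale (SE 0.221, adjusted p = 5.2e-06, edgeR) and Hist1h1e by 2.04 (SE 0.161, adjusted p = 2.6e-06). In total 4 of 5 tested H1 members were lower, the fifth being Hist1h1a at -1.01 ± 0.363 (adjusted p = 0.0574).

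Of the H2A members, which pair with H2B in the nucleosome, 9 of 11 were lower, as were 9 of 10 H2B members. Hist2h2aa2 read 414, 485, 518 and 560 CPM in spleen and 65.6, 68.2, 100 and 135 CPM in tumor, a log2 fold change of -2.14 ± 0.204 (adjusted p = 1.1e-05, edgeR). Hist1h2ao read 149, 189, 196 and 219 CPM in spleen and 3.78, 12.1, 18.6 and 23.6 CPM in tumor, where its lowest library stood at the level of 3 counts. Its log2 fold change was -3.34 ± 0.287 (adjusted p = 5.2e-06).

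The H3 members were lower by the most: all 6 tested were called, with a median of -3.22. Hist1h3b read 51.1, 83.2, 125 and 146 CPM in spleen and 6.30, 7.77, 9.90 and 10.8 CPM in tumor (log2 fold change -3.27 ± 0.340, adjusted p = 2.6e-05, edgeR). All 8 tested H4 members were lower too, with a median of -2.15. Hist1h4d, the H4 gene with the most counts per kb, read 168, 217, 235 and 246 CPM in spleen and 10.1, 44.5, 45.5 and 63.3 CPM in tumor. With members limited to those sharing at most 50% of their stretches, 20 of 22 were lower.

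In PMN-MDSC the histone genes were also lower in tumor than in spleen, by less. Of 26 members tested, 14 were lower in tumor than in spleen and none higher (29.7% and 29.4% of 7971 genes), with a median of -1.01 beside 0.01 for all genes. The count was 9 with all 9 groups in a fit, 5 at the study's thresholds and 28 with no filter on low counts. Hist1h1c read 477, 582, 663 and 749 CPM in spleen and 208, 264, 295 and 306 CPM in tumor (log2 fold change -1.35 ± 0.215, adjusted p = 4.0e-04, edgeR). Hist1h1e fell by 1.60 (SE 0.230, adjusted p = 2.2e-04) and Hist2h2aa2 by 1.38 (SE 0.198, adjusted p = 2.2e-04). The libraries of the 2 groups did not overlap for these genes. Cell type marker lists differed between the same libraries. Macrophage markers summed to 415 to 1303 CPM in spleen and 9749 to 13299 CPM in tumor, and neutrophil markers to 24580 to 43381 CPM in spleen and 1513 to 5261 CPM in tumor. Neutrophil progenitor markers gave 28.7 to 58.9 CPM in spleen and 7.04 to 13.2 CPM in tumor. Erythroid markers gave 59.6 to 178 CPM in spleen and 0 to 17.3 CPM in tumor, and B cell markers 129 to 208 CPM and 49.7 to 95.4 CPM. Tumor epithelium markers gave 0 to 1.49 CPM in spleen and 89.5 to 617 CPM in tumor. Their part in the result was not tested.

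By class, 3 of 5 H1, 5 of 6 H2A, 4 of 7 H2B and 2 of 5 H4 members were lower, and 0 of 3 H3 members. Hist1h3b read 16.7, 21.5, 22.9 and 36.2 CPM in spleen and 9.21, 10.8, 14.7 and 27.3 CPM in tumor, so the groups overlapped (log2 fold change -0.80 ± 0.366, adjusted p = 0.0803, edgeR). The log2 fold changes furthest from 0 were those of the H2B near copies Hist1h2br (-3.10 ± 0.597, adjusted p = 0.00130) and Hist1h2bq (-2.77 ± 0.381, adjusted p = 1.6e-04). Hist1h2bq read 19.4 to 37.7 CPM in spleen and 1.63 to 8.39 CPM in tumor. Genes of DNA replication that passed the filter did not share this direction in PMN-MDSC. Of 13 tested, 11 were higher in tumor and none lower, with a median of 1.39, beside 29.4% higher and 29.7% lower of all genes. A gene that passed the filter only through tumor had to differ, so this count describes the genes that passed. Pcna, the sliding clamp of DNA polymerase, read 17.4 to 22.8 CPM in spleen and 56.3 to 66.9 CPM in tumor (log2 fold change 1.42, adjusted p = 4.3e-05).

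**Figure D2:**
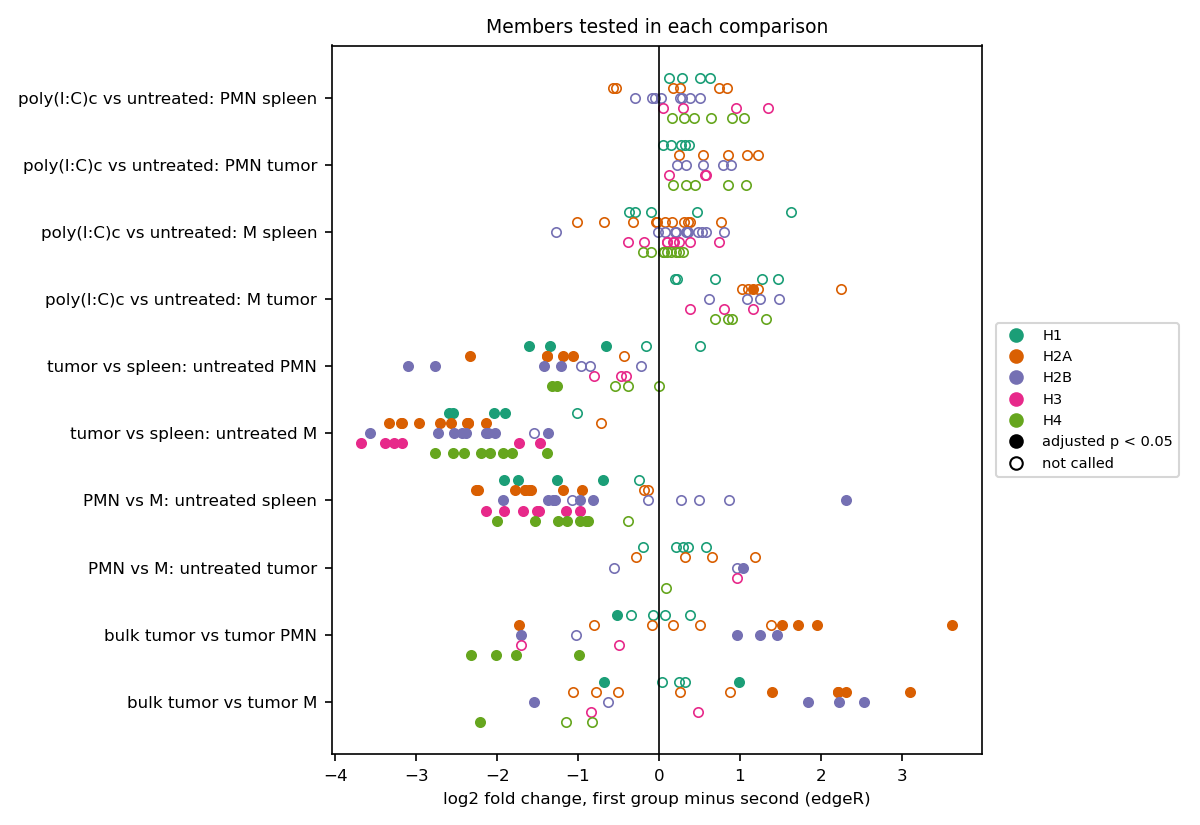
Log2 fold change (x axis) of each tested member in the 10 comparisons (y axis), coloured by histone class, with filled points for an edgeR adjusted p under 0.05. In the tumor-against-spleen comparison of untreated M-MDSC all 40 points lie left of 0, from -3.68 to -0.72, and in the 4 treatment comparisons a single point, Hist2h2aa2 in tumor M-MDSC at 1.17, is filled.

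The tumor-minus-spleen difference was then compared between the cell types, in a single fit with an interaction term. Of 32 members tested, 15 differed at an adjusted p under 0.05, not far above the 37.5% of 8278 genes that did, and 29 had a value above 0, meaning a smaller drop in PMN-MDSC, or none. The median of the interaction was 1.23 on the log2 scale, beside 0.00 for all genes. Hist1h1d gave 1.88 ± 0.323 (SE, adjusted p = 3.7e-04, edgeR), Hist1h3b 2.45 ± 0.527 (adjusted p = 0.00205) and Hist2h2aa2 0.76 (adjusted p = 0.0476). All the groups in this fit are those of the tumor-against-spleen comparisons above.

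Within untreated spleen, PMN-MDSC held less of most members than M-MDSC. Of 43 members tested, 33 were lower and 1 was higher in PMN-MDSC (33.4% and 30.9% of 8579 genes), with a median of -1.25 beside -0.08 for all genes. A single fit over all 9 groups called 15 of the 43, and the study's thresholds 9. All 7 tested H3 members, 7 of 8 H4, 9 of 11 H2A, 6 of 12 H2B and 4 of 5 H1 members were lower. Hist1h1b, a linker histone gene, read 29.9, 30.5, 31.5 and 33.9 CPM in PMN-MDSC and 116, 121, 177 and 203 CPM in M-MDSC (log2 fold change -1.92 ± 0.196, adjusted p = 3.5e-05, edgeR). Hist2h2ac was lower by a log2 fold change of -1.66 ± 0.191 (adjusted p = 7.1e-05), with no overlap. The H4 gene Hist1h4k read 6.42 to 11.5 CPM in PMN-MDSC and 38.9 to 48.8 CPM in M-MDSC (adjusted p = 3.5e-05). The neutrophil progenitor list lay in the same direction, with 28.7 to 58.9 CPM in PMN-MDSC and 104 to 254 CPM in M-MDSC without overlap, and its part was not tested.

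Not all members followed. Hist1h2bc, an H2B gene with no stem-loop in its model, was the member higher in PMN-MDSC. It read 14.3, 29.8, 29.9 and 33.4 CPM there and 4.18, 5.27, 8.33 and 9.52 CPM in M-MDSC, with no overlap (log2 fold change 2.31 ± 0.348, adjusted p = 3.6e-04, edgeR). Hist1h1c differed by -0.25 ± 0.203 (adjusted p = 0.296) and Hist2h2aa2 by -0.18 ± 0.128 (adjusted p = 0.234). In CPM of the library total, Hist1h1c read 477 to 749 in PMN-MDSC and 767 to 1234 in M-MDSC, and Hist2h2aa2 311 to 353 and 414 to 560. Neither overlapped in CPM, so the difference of both genes depended on the scaling between libraries. Hist2h2be, the third gene known for polyadenylated transcripts, was low in each group, with means of 0.368 to 5.80 CPM.

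In untreated tumor, few of these genes differed between the cell types. Of 14 members tested, 1 was higher in PMN-MDSC and none lower (7.25% and 5.73% of 7623 genes), with a median of 0.34 beside -0.01. An unadjusted p under 0.05 was reached by 4 members, and DESeq2 called 2. The H2B gene Hist1h2be read 18.8, 25.6, 26.4 and 33.6 CPM in PMN-MDSC and 9.90, 10.1, 11.7 and 20.9 CPM in M-MDSC, so that the groups overlapped (log2 fold change 1.04 ± 0.299, adjusted p = 0.0358, edgeR). This call was lost without any of 3 PMN-MDSC libraries (those of the lowest, second lowest and highest summed level) or either of the M-MDSC libraries of middle level, with values of 0.89 to 1.06. Both tumor groups held macrophage markers, as given above, and their part in these values was not tested.

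**Figure D3:**
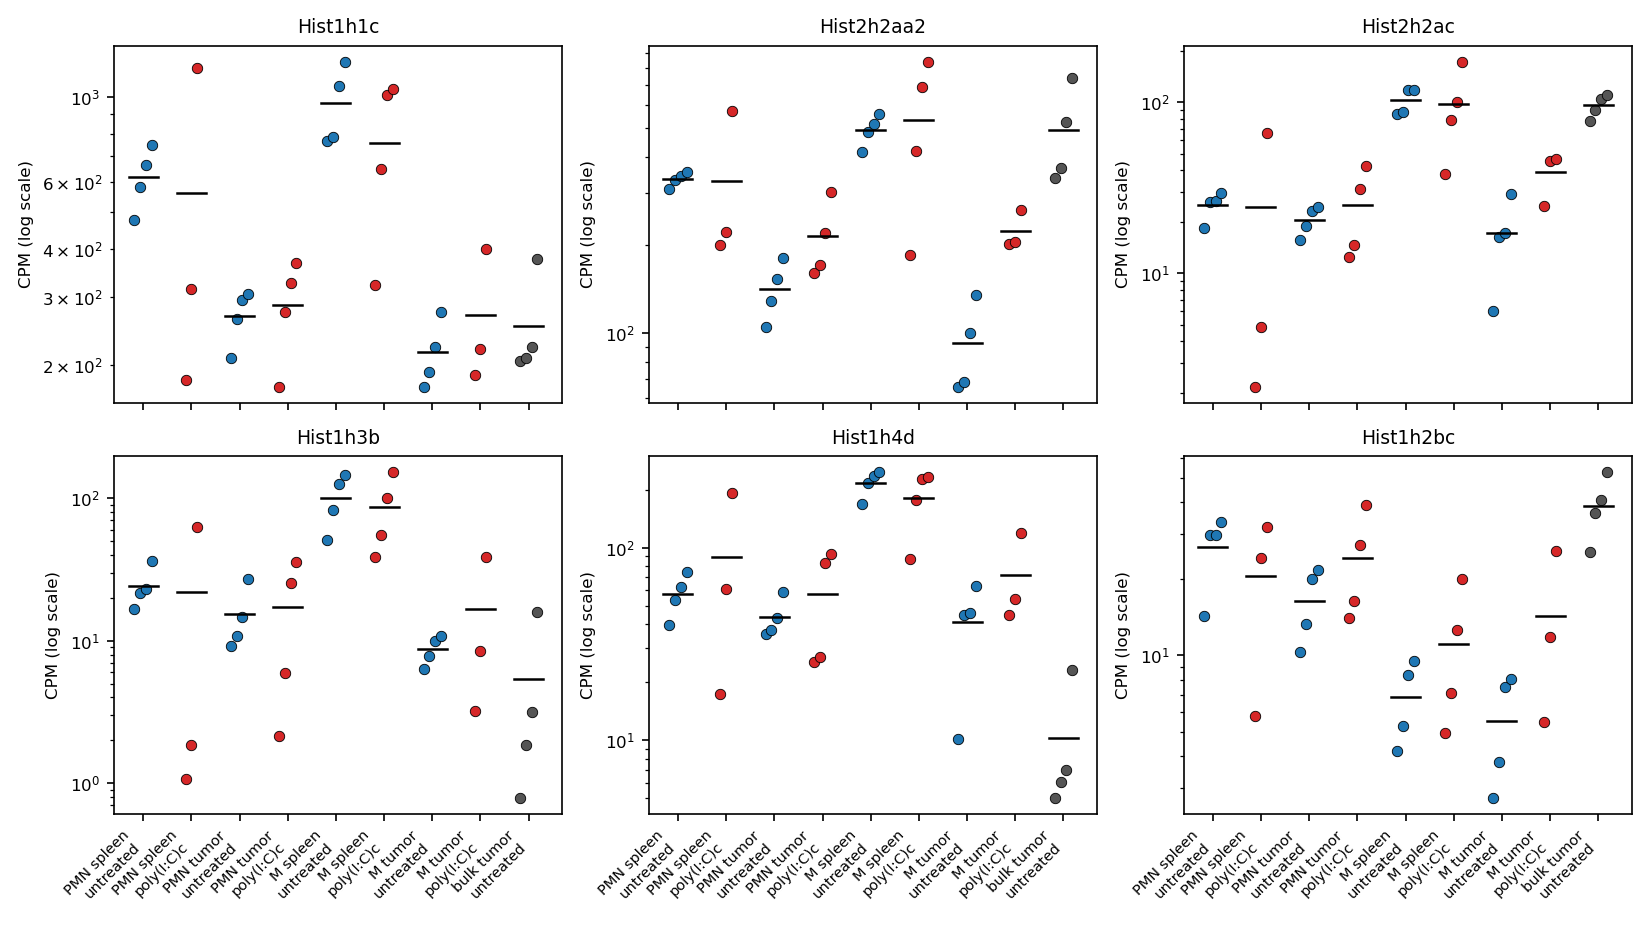
CPM per library (y axes, log scale) of 6 named members in the 9 groups (x axes), with blue points for untreated, red for poly(I:C)c and grey for bulk tumor, and a horizontal line for the mean. Hist1h4d is lowest in bulk tumor (5.04 to 23.1 CPM), where Hist2h2ac (78.0 to 111 CPM) lies far above untreated tumor PMN-MDSC (15.7 to 24.3 CPM).

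Bulk tumor held some members at higher and others at lower levels than the sorted tumor cells. Against tumor PMN-MDSC, 7 of 26 tested members were higher and 7 lower (36.9% and 32.8% of 11138 genes), with a median of -0.08 beside 0.11. Against tumor M-MDSC, 9 of 25 were higher and 3 lower (38.2% and 31% of 11022 genes), with a median of 0.26 beside 0.17. Both comparisons use the same 4 bulk libraries. The shares called were at or below those of all genes.

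The members that were higher included H2A and H2B genes of the Hist2 cluster. Hist2h2ac read 78.0, 90.3, 105 and 111 CPM in bulk tumor, 15.7, 19, 23.2 and 24.3 CPM in tumor PMN-MDSC and 6.05, 16.4, 17.2 and 29 CPM in tumor M-MDSC. All bulk libraries stood above all sorted ones, and the log2 fold change was 1.96 ± 0.185 (adjusted p = 2.2e-06, edgeR) against PMN-MDSC and 2.31 ± 0.340 (adjusted p = 8.7e-05) against M-MDSC. Its neighbour Hist2h2ab read 18.8, 19, 20.4 and 22.4 CPM in bulk tumor and at most 2.80 CPM in PMN-MDSC, where 11 counts fell on it over 4 libraries (3.63 ± 0.444, adjusted p = 1.9e-05). In M-MDSC it held 17 counts over 4 libraries (3.10 ± 0.395, adjusted p = 2.9e-05). Hist2h2ab passed the filter on counts only through the bulk libraries. It therefore had to differ, and its values are a description and no test.

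Hist2h2aa2 read 337, 366, 523 and 740 CPM in bulk tumor, above all untreated tumor MDSC libraries (log2 fold change 1.52 ± 0.280 and 2.21 ± 0.324, adjusted p = 4.6e-04 and 8.5e-05, edgeR, against PMN-MDSC and M-MDSC). Hist2h2bb was higher by 1.25 and 2.23 (adjusted p = 0.00101 and 4.4e-04). Of 6 tested Hist2 members, 4 were higher in each comparison, Hist2h2ab with the limit given above among them, and 1 was lower against PMN-MDSC. Outside this cluster, Hist1h2bc read 25.5, 36.2, 41 and 52.6 CPM in bulk tumor, with log2 fold changes of 0.97 (adjusted p = 0.00929) and 2.54 ± 0.361 (adjusted p = 6.8e-05).

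Against tumor PMN-MDSC the H4 genes, which pair with H3, stood at the other end. All 4 tested H4 members were lower in bulk tumor (median -1.89), beside 32.8% of all genes. Against tumor M-MDSC, Hist1h4d was the only H4 member called lower. Hist1h4d read 5.04, 6.08, 7 and 23.1 CPM in bulk tumor and 35.6, 37.4, 43.2 and 58.8 CPM in PMN-MDSC, without overlap (log2 fold change -2.32 ± 0.438, adjusted p = 7.1e-04, edgeR). Against M-MDSC, which read 10.1, 44.5, 45.5 and 63.3 CPM, the groups overlapped (-2.21 ± 0.555, adjusted p = 0.00426). Hist1h4m (-2.01 ± 0.404, adjusted p = 8.6e-04) and Hist4h4 (-1.77, adjusted p = 0.00170) were also lower than in PMN-MDSC. The lower members of other classes were the H2B gene Hist1h2be (-1.70 ± 0.240, adjusted p = 5.9e-05) and the H2A gene Hist1h2ao (-1.73 ± 0.558, adjusted p = 0.0186), with Hist1h1e at -0.52. Against M-MDSC the other lower members were Hist1h1e (-0.68, adjusted p = 0.0119) and the H2B gene Hist1h2bg (-1.54, adjusted p = 0.0195). Hist1h1e stood at -0.53 and lost its call without either of the M-MDSC libraries of highest summed level. Hist1h2bg lost it without the lowest (-1.32) or highest (-1.45) M-MDSC library or the lowest bulk library (-1.46).

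The members were also grouped by their annotated 3′ end. Of 10 tested members whose model runs more than 100 bases past the stem-loop, 5 were lower in bulk tumor than in tumor PMN-MDSC and none higher. Of 9 tested members with no stem-loop in their model, 4 were higher and none lower. As given above, such a model may end before the stem-loop. Of 7 that end within 100 bases, 3 were higher and 2 lower. Over all genes 36.9% were higher and 32.8% lower. Against M-MDSC the counts were 0 higher and 3 lower of 10, 5 higher and 0 lower of 9, and 4 higher and 0 lower of 6, where 38.2% of all genes were higher and 31% lower. Several of these shares lie near those of all genes, and the 3′ end groups were not tested against each other.

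The class makeup followed from these values. H1 genes gave 47.8% of the members' summed CPM in untreated tumor PMN-MDSC, 53.0% in tumor M-MDSC and 34.8% in bulk tumor. H2A genes gave 23.6%, 21.1% and 47.8% ± 5.30 (SD, n = 4), and H4 genes 11.1%, 11.1% and 2.98% ± 1.84. The Hist2 cluster held 50.0% ± 6.66 of the sum in bulk tumor (41.7% to 55.6%) and 15% to 32.8% in the MDSC libraries, so the ranges did not overlap. Bulk libraries were lysed directly while MDSC were enriched and sorted before lysis, so cell content and handling cannot be told apart here. The tumor epithelium list summed to 4849 ± 881 CPM in bulk tumor and to 304 ± 240 and 108 ± 93.1 CPM in untreated tumor PMN-MDSC and M-MDSC, and its part in these values was not tested.

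**Figure D4:**
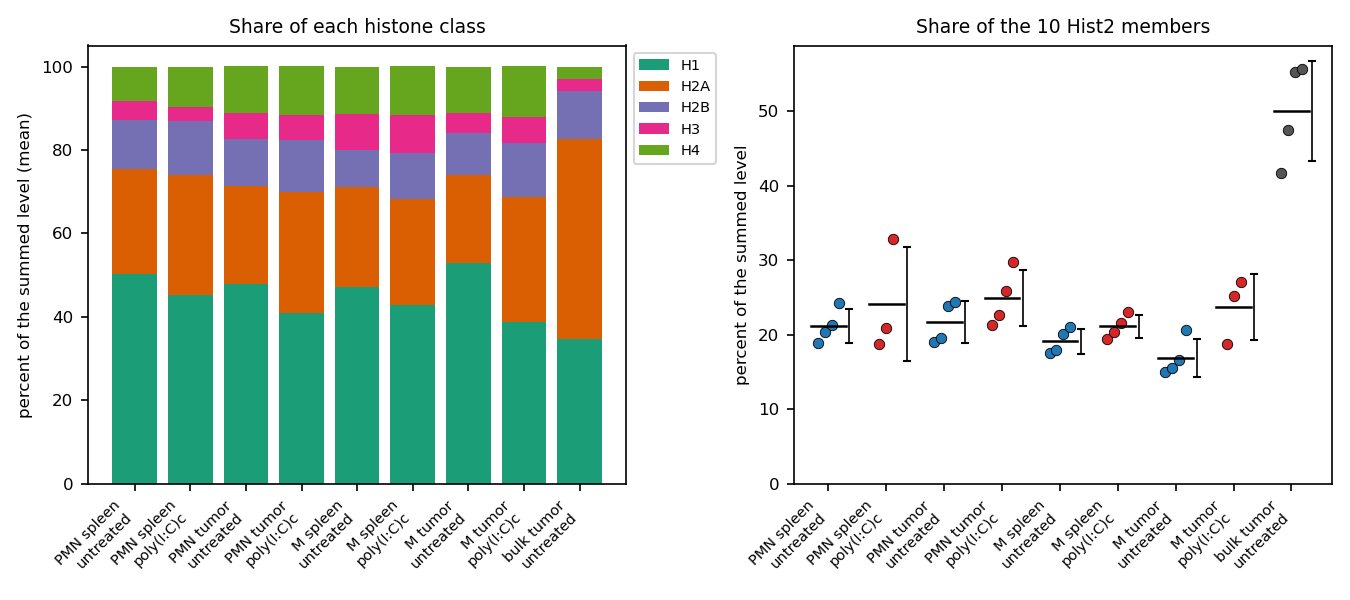
Share of the members' summed CPM (y axis, percent) by histone class as stacked bars of group means, and the share of the Hist2 cluster by library as points with mean and SD (blue untreated, red poly(I:C)c, grey bulk tumor). In bulk tumor H2A holds 47.8% and H4 2.98%, and the Hist2 share of 41.7% to 55.6% lies above that of all MDSC libraries.

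Treatment with poly(I:C)c was compared with untreated mice within each cell type and compartment, and few members passed the test. In tumor M-MDSC all 21 tested members had a positive log2 fold change (median 1.09, beside 0.00 for all genes), and 1 was called higher and none lower (1.82% and 1.06% of 8360 genes). An unadjusted p under 0.05 was reached by 8 members, DESeq2 called 3, and edgeR with no filter on low counts called 9 of 64. The class medians were 0.70 for H1, 1.17 for H2A, 1.17 for H2B, 0.81 for H3 and 0.89 for H4. The summed level was 1068, 1307 and 2264 CPM in treated libraries and 593, 634, 1024 and 1075 CPM in untreated ones, so the lowest treated library lay within the untreated range.

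The called member was Hist2h2aa2, with 201, 204 and 262 CPM in treated and 65.6, 68.2, 100 and 135 CPM in untreated tumor M-MDSC. The groups did not overlap (log2 fold change 1.17 ± 0.255, adjusted p = 0.0444, edgeR). Hist1h2ao did not pass, with 28.5, 87.0 and 117 CPM in treated and 3.78 to 23.6 CPM in untreated libraries, again without overlap (2.25 ± 0.545, adjusted p = 0.0616). Without any single library other than the lowest treated one, no member was called, and without that one 2 were. The log2 fold change of Hist2h2aa2 itself stayed between 1.05 and 1.42. Of 18 S phase genes tested in this comparison 2 were higher, with a median of 1.52. They were the helicase subunit Mcm6 (1.73, adjusted p = 0.0146) and Uhrf1 (1.94, adjusted p = 0.0383), which helps copy DNA methylation. The treated library of the lowest histone sum had a macrophage list of 28604 CPM against 5185 and 10801 CPM in the others. That of the highest sum had a neutrophil progenitor list of 224 CPM against 2.75 and 18.8 CPM. The monocyte list was lower in treated (2524 to 3251 CPM) than in untreated libraries (3875 to 4648 CPM), without overlap. Their part in these values was not tested.

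In tumor PMN-MDSC all 23 tested members had a positive log2 fold change with a median of 0.45, beside 0.01 for all genes, but edgeR called none (2.29% of 8308 genes higher, 1.07% lower). With no filter on low counts edgeR called 4 of 64. An unadjusted p under 0.05 was reached by 3 members with the filter, and DESeq2 called 1, the H4 gene Hist2h4. It read 8.61, 16.4, 19.1 and 24.9 CPM in treated and 6.50, 7.19, 9.01 and 9.10 CPM in untreated libraries (log2 fold change 1.08 ± 0.304, adjusted p = 0.0867, edgeR), and the lowest treated library lay within the untreated range. Without the treated library of the lowest sum edgeR also called 1 member. Hist1h1c, with 175, 274, 326 and 369 CPM treated, gave 0.05 ± 0.198 (adjusted p = 0.926). The treated sums of 695, 903, 1740 and 2149 CPM surrounded the untreated range of 924 to 1121 CPM. In the same order of libraries the macrophage list read 7297, 12063, 18599 and 17675 CPM and the S phase list 317, 430, 849 and 883 CPM, so both were higher in the libraries of the higher histone sums. Their part was not tested.

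In splenic PMN-MDSC the treated libraries disagreed among themselves. Their sums were 738, 1041 and 4647 CPM, so that 2 lay below and 1 above all untreated libraries (1813 to 2295 CPM). With all 3 in the fit, none of 28 tested members was called by edgeR or DESeq2, and none reached an unadjusted p under 0.05 (6.10% of 7261 genes were higher, 5.52% lower), with a median of 0.29 beside 0.01. Hist1h3b read 1.08, 1.86 and 62.8 CPM treated against 16.7, 21.5, 22.9 and 36.2 CPM untreated. Hist2h2ac read 2.16, 4.83 and 66.6 CPM against 18.3, 26.3, 26.4 and 29.4 CPM. For both genes the untreated libraries lay between the treated ones.

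Without the treated library of the highest sum, 10 of 26 tested members were lower and none higher (7% of 7468 genes lower, 6.41% higher), and the median was -1.43 beside -0.01. This library was picked for its histone level, so these values describe what it carries and are no test. The 10 were Hist1h1b, Hist1h1d, Hist1h2ak, Hist1h2bg, Hist1h2bn, Hist1h3b, Hist1h4h, Hist2h2ac, Hist2h2bb and Hist2h3c2. Hist1h3b then stood at -3.70 ± 0.528 (adjusted p = 0.00696, edgeR) and Hist1h1b at -2.23 ± 0.364 (adjusted p = 0.00988), while Hist1h1c stood at -1.02 (adjusted p = 0.0662). The same library had 1169 CPM in the G2 and mitosis list against 75.2 and 114 CPM in the others, and 245 CPM in the S phase list against 74.2 and 86.1 CPM. Its neutrophil progenitor list read 122 CPM against 21.5 and 29.9 CPM. Other lists were lower in all treated libraries than in all untreated ones. The macrophage list read 65.2 to 176 CPM treated and 415 to 1303 CPM untreated, and the B cell list 71.1 to 118 and 129 to 208 CPM. The erythroid list read at most 7.68 CPM treated and at least 59.6 CPM untreated. The remaining marker lists overlapped between treated and untreated libraries. Their part in the result was not tested.

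In splenic M-MDSC 46 members were tested and edgeR called none (9.96% of 8827 genes higher, 9.48% lower). An unadjusted p under 0.05 was reached by 1 member, Hist1h1a, which DESeq2 called, and the median was 0.17 beside -0.03. This linker histone gene read 16.2, 56.8, 121 and 165 CPM treated and 24.8, 28.6, 32.5 and 32.9 CPM untreated (log2 fold change 1.63 ± 0.583, adjusted p = 0.0862, edgeR). The lowest treated library was below all untreated ones and the others above them. Without the treated library of the lowest sum edgeR called 1 member. Treated sums spread from 1576 to 6665 CPM, around the untreated 3731 to 5529 CPM. The library of 6665 CPM read 13759 CPM in the B cell list against 136 to 406 CPM in the other treated ones. The libraries of 5984 and 6665 CPM also had the higher neutrophil progenitor lists (362 and 314 CPM against 46.3 and 133 CPM), neutrophil lists (6267 and 5619 CPM against 1045 and 1434 CPM) and G2 and mitosis lists (2281 and 2717 CPM against 569 and 715 CPM). Their part in the spread was not tested. Without the library of 6665 CPM again no member was called or reached an unadjusted p under 0.05 (11.6% of 8819 genes higher, 8.87% lower), with a median of -0.12. S phase genes gave 3 higher of 24 with all libraries, among them the cyclin gene Ccne1 and the helicase subunit gene Mcm3 (log2 fold change 0.89).

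Whether treatment acted alike in tumor and spleen was examined with an interaction term. In PMN-MDSC 0 of 27 members differed (3.50% of 8047 genes), with a median of 0.16 beside 0.11, a smallest adjusted p of 0.231 in edgeR and 1 member whose unadjusted p was under 0.05. Without the treated splenic PMN-MDSC library of the highest summed histone level, a library singled out by that level, 5 of 25 members differed (5.49% of 8149 genes). Of 42 members tested in M-MDSC, 0 differed (0.790% of 8730 genes), with a median of 0.88 beside 0.03, a smallest adjusted p of 0.270, and 2 members had an unadjusted p under 0.05. With no filter on low counts 5 of 66 members differed in M-MDSC (2.21% of 29825 genes). Here 40 of 42 values were above 0, the direction of a more positive treatment difference in tumor. The untreated and treated libraries are those of the comparisons above.

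The level of cell cycle genes is given beside the histone genes. The S phase list summed to 242 ± 55.6 CPM in untreated splenic PMN-MDSC, 585 ± 81.8 CPM in tumor PMN-MDSC, 713 ± 152 CPM in splenic M-MDSC and 376 ± 103 CPM in tumor M-MDSC. It reached 1082 ± 93.8 CPM in bulk tumor. In M-MDSC both this list and the histone genes were lower in tumor than in spleen: 7 of 16 S phase genes and 11 of 15 G2 and mitosis genes were lower and none higher, beside 12.7% lower and 15.7% higher of all genes tested. Top2a, which untangles DNA before division, stood at -1.51 (adjusted p = 0.00951, edgeR), Mcm7 at -1.44 and Ube2c at -1.93. In PMN-MDSC most S phase genes that passed the filter were higher in tumor, with the limit given above. Of 10 G2 and mitosis genes 0 were called, beside 29.4% higher and 29.7% lower of all genes.

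In bulk tumor the G2 and mitosis list had its highest mean and the H4 class its lowest (41.1 CPM). The list summed to 2790 ± 870 CPM there, and 20 of its 22 tested genes were higher than in tumor PMN-MDSC and 21 of 22 than in tumor M-MDSC. Of 28 S phase genes, 15 and 22 were higher and 3 and 1 lower, beside 36.9% and 38.2% higher and 32.8% and 31% lower of all genes tested. Top2a stood at 2.34 and 3.23 on the log2 scale, and read 320, 483, 591 and 635 CPM in bulk tumor against 47.0 to 109 CPM in untreated tumor PMN-MDSC and 17 to 62.7 CPM in untreated tumor M-MDSC.

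**Figure D5:**
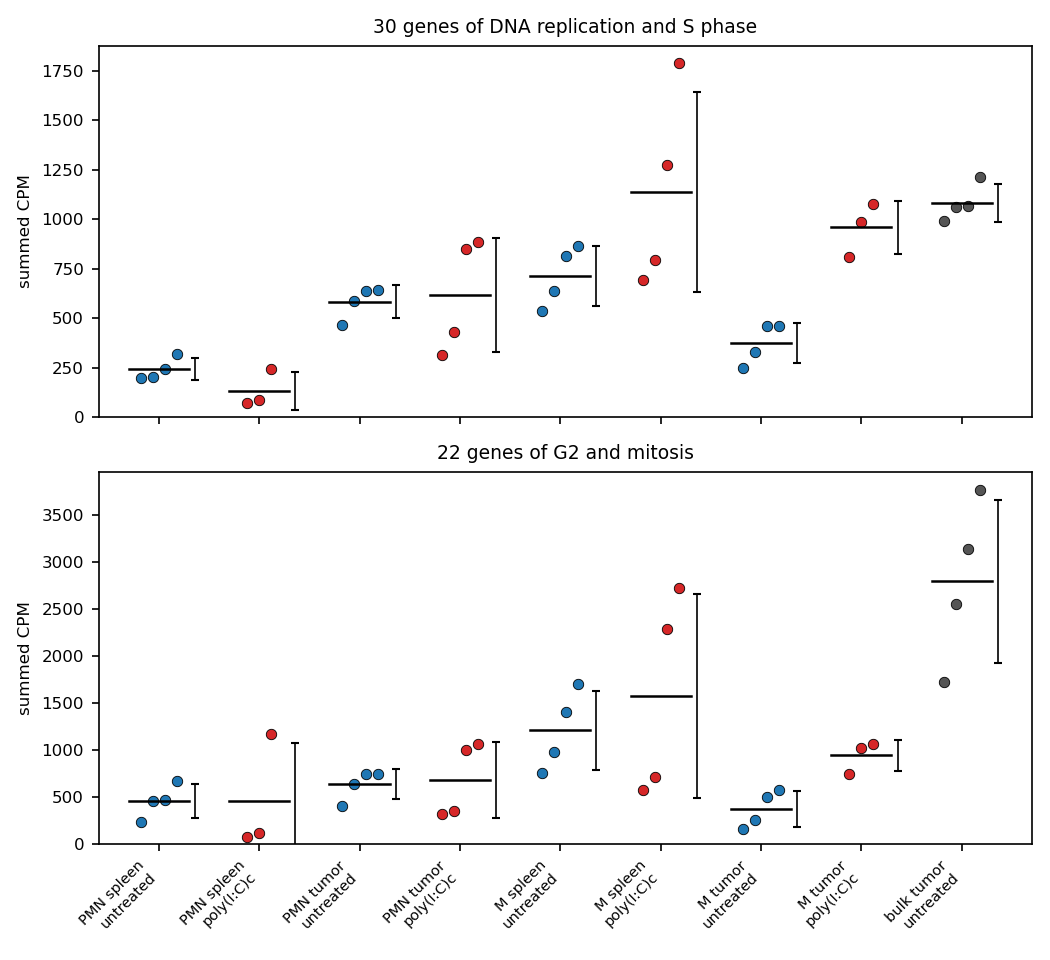
Summed CPM per library (y axes, linear) of the S phase list (30 genes) and the G2 and mitosis list (22 genes) in the 9 groups (x axes), with blue points for untreated, red for poly(I:C)c and grey for bulk tumor, a line for the mean and a bar for the SD, cut at 0. Bulk tumor has the highest mean of the G2 and mitosis list (2790 CPM), and untreated splenic PMN-MDSC (242 CPM) lie below untreated tumor PMN-MDSC (585 CPM) in the S phase list.

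Genes that make, process and destroy histone mRNA were followed as a fixed list of 12. Slbp, whose protein binds the stem-loop printed above, read 55.7, 65.0, 70.1 and 80.3 CPM in untreated splenic M-MDSC and 38.5, 41.1, 42.9 and 50.2 CPM in tumor M-MDSC. In bulk tumor it read 30.1, 30.2, 30.9 and 35.6 CPM, below all untreated MDSC libraries (log2 fold change -0.81, adjusted p = 0.00115, and -0.64, adjusted p = 0.00563, edgeR, against tumor PMN-MDSC and M-MDSC). Npat, which drives histone gene transcription in S phase, went the other way with 26.3, 31.6, 38.7 and 40.2 CPM in bulk tumor and log2 fold changes of 0.69 and 1.30. Cstf2, a cleavage factor, was higher by 1.67 and 1.47.

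In the tumor-against-spleen comparison of PMN-MDSC, 3 of 9 tested genes of this list were higher (Cstf2, Npat and the histone mRNA exonuclease Eri1) and 1 lower (Upf1), near the 29.4% and 29.7% of all genes. In M-MDSC none of 9 was called by edgeR, and 3 reached an unadjusted p under 0.05. Between cell types in spleen, 5 of 9 were lower in PMN-MDSC and 1 higher (33.4% and 30.9% of all genes), with Cstf2 at -1.43, Eri1 at -1.39 and Npat at -1.27. Under treatment 1 gene of the list was called in 1 comparison, Eri1 at -1.45 in splenic PMN-MDSC, where 5.52% of all genes were lower.

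Among replication-independent histones, the pair of genes for H3.3 did not move together. H3f3b was higher in tumor than in spleen in both cell types, by 0.89 (adjusted p = 0.00145, edgeR) in PMN-MDSC and 1.36 (adjusted p = 9.5e-06) in M-MDSC. H3f3a was lower in tumor PMN-MDSC (-0.90 ± 0.231, adjusted p = 0.00662, with overlap) and in M-MDSC stood at -0.38 ± 0.236 (adjusted p = 0.259), with 520 to 593 CPM in spleen and 170 to 469 CPM in tumor. The replication-dependent H3 genes had medians of -0.47 and -3.22 in these comparisons. H1f0, a linker histone of resting cells, was higher in tumor PMN-MDSC by 2.90. In M-MDSC it overlapped, with 43.8 to 72.0 CPM in spleen and 41.2 to 61.3 CPM in tumor. In bulk tumor H3f3b was lower than in tumor PMN-MDSC and M-MDSC, with log2 fold changes of -2.15 and -1.96, and H3f3a stood at 0.39 and 0.15 (adjusted p = 0.115 and 0.682, edgeR). Of the 7 tested genes of the cell cycle exit list, 2 were higher and 3 lower in tumor PMN-MDSC (median -0.41). Over all genes 29.4% were higher and 29.7% lower there. In tumor M-MDSC 4 of the 7 were higher and none lower (median 0.43), beside 15.7% higher and 12.7% lower of all genes. Cdkn1a, an inhibitor of the cell cycle, was higher in tumor by 5.51 in PMN-MDSC and 4.20 in M-MDSC (adjusted p = 1.2e-06 in both, edgeR). Cdkn1b and Cdkn2d, inhibitors of the same kind, were lower in tumor PMN-MDSC by 1.45 and 2.60 on the log2 scale (adjusted p = 4.6e-04 and 4.8e-04, edgeR), and in M-MDSC stood at 0.43 (adjusted p = 0.0465) and 0.13 (adjusted p = 0.782).

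Of 13 histone chaperones, 6 were tested under treatment in splenic PMN-MDSC, with 1 higher and 1 lower (6.10% and 5.52% of all genes). In tumor PMN-MDSC 1 of 8 was higher (2.29%), in splenic M-MDSC 2 of 10 were higher (9.96%), and in tumor M-MDSC 0 of 8 were called by edgeR, with 2 at an unadjusted p under 0.05. Daxx, which places H3.3, was higher under treatment by 1.98 in splenic PMN-MDSC (adjusted p = 0.00391, edgeR), 1.47 in tumor PMN-MDSC (adjusted p = 0.0133) and 1.67 in splenic M-MDSC (adjusted p = 0.00244). In tumor M-MDSC it read 64.7, 164 and 203 CPM in treated and 72.0 to 112 CPM in untreated libraries, which overlapped (0.67, adjusted p = 0.354, edgeR). Hat1, which acetylates new H4, rose by 1.35 in splenic M-MDSC (adjusted p = 4.7e-04, edgeR). The calls of the replication-dependent members in these 3 comparisons, with the filter and under the alternatives, are those given above.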

How the data were processed

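The authors deposited raw read counts per Ensembl gene in a single table. The submitters' processing notes name BWA, featureCounts and Subread 1.4.6-p3, with GRCm38, and the methods describe stranded counting of SMARTer total RNA libraries depleted of ribosomal RNA. Of 35 deposited libraries 34 were used, the exception holding 10 counts. The members and lists were chosen with earlier results of these data known.

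Levels are CPM, counts per 1000000 of the library total. Each comparison was fitted on the libraries of its groups with edgeR 4.0.16 (R 4.3.3, quasi-likelihood test) on the deposited counts, with TMM scaling and genes of a mean count of at least 25. P-values were adjusted over all genes tested by the Benjamini-Hochberg method, with a threshold of 0.05. DESeq2 1.42.0, no filter, other scalings, all 9 groups in a single fit, the study's thresholds (adjusted p 0.001, fold of 2), members with few shared stretches, and leaving out each library were alternatives. The procedure was tested on simulated data. Positions and stem-loops come from GENCODE M21 and promoters from RefSeq.

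Members were named by a fixed rule: the 3 highest per class by CPM per kb in MDSC, up to 4 called members with the smallest p in each direction of a comparison, Hist1h1c, Hist1h2bc and Hist2h2be, and up to 3 against the majority direction. Other members were named after their values were seen, where a count or the text around it turned on them. The full genotype of the tumor line and the value of a single S phase gene are not reported here.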

Additional observations from a re-analysis of the deposited data

Results flagged for a closer look

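Among groups of 4 libraries, 217 group values of members, classes and lists were examined for a library that stands apart from the other 3 by Dixon's test. There were 11, or 5.07%, and chance alone flags about 1 in 20 groups.

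Of these, 6 lay in bulk tumor. The summed H4 class read 79.8 CPM in the highest library against 23.3, 28.7 and 32.5 CPM in the others. The H4 gene Hist1h4d read 23.1 CPM against 5.04, 6.08 and 7 CPM, and the H3 gene Hist1h3b 15.9 CPM against 0.795, 1.85 and 3.15 CPM. The linker histone genes Hist1h1c and Hist1h1e read 377 CPM against 205, 208 and 223 CPM, and 129 CPM against 75.1, 80.8 and 84.0 CPM. The replication-independent histones summed to 1393 CPM in the highest library against 1106, 1116 and 1139 CPM.

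Among sorted cells, Hist1h3i read 15.6 CPM in a treated tumor PMN-MDSC library against 1.37, 3.41 and 3.45 CPM. Hist2h2be, an H2B gene, read 8.13 CPM in an untreated tumor PMN-MDSC library against 3.32, 3.64 and 4.00 CPM, and 1.26 CPM in an untreated tumor M-MDSC library against 2.7, 2.75 and 2.77 CPM. The B cell list summed to 13759 CPM in a treated splenic M-MDSC library against 136, 179 and 406 CPM. The tumor epithelium list summed to 8.28 CPM in an untreated splenic M-MDSC library against 0.527, 0.929 and 1.19 CPM.

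The tumor-minus-spleen difference of untreated mice differed between PMN-MDSC and M-MDSC for 15 of 32 tested members (edgeR interaction term, adjusted p under 0.05, beside 37.5% of all genes), all with a smaller drop, or none, in PMN-MDSC. Among H1 genes the difference of log2 fold changes was 1.5 for Hist1h1a, 2.42 for Hist1h1b and 1.88 for Hist1h1d. Among H2A and H2B genes it was 2.27 for Hist1h2ao, 0.76 for Hist2h2aa2, 1.91 for Hist2h2ac and 2.17 for Hist2h2bb. The H3 genes Hist1h3b, Hist1h3i and Hist2h3c2 gave 2.45, 2.17 and 2.78. The H4 genes gave 1.43 for Hist1h4c, 1.55 for Hist1h4d, 1.79 for Hist1h4k, 1.28 for Hist2h4 and 1.39 for Hist4h4.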

How the results depend on the processing

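Of 308 values of the comparisons under alternatives, 257 kept direction and size, 41 moved and 10 reversed; of 553 for named members, 509 kept their call, 29 lost and 5 gained it, and 10 reversed. The 36 lower members of tumor M-MDSC ranged from 26 to 39 without any single library.

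Counts of called members moved as follows. With no filter on low counts they were 28 (against 14) for tumor against spleen in PMN-MDSC, 24 (against 14) and 22 (against 12) for bulk tumor against PMN-MDSC and M-MDSC, 5 (against 1) between cell types in tumor, 4 and 9 (against 0 and 1) for treatment in tumor PMN-MDSC and M-MDSC, and 5 (against 0) for the treatment interaction in M-MDSC. With all 9 groups in a fit they were 9 for tumor against spleen in PMN-MDSC, 15 (against 34) between cell types in spleen, 0 in tumor, and 8 for bulk tumor against PMN-MDSC. At the study's thresholds they were 5, 9, 0, 6 and 5 for these and bulk tumor against M-MDSC, and 0 for treatment in tumor M-MDSC. DESeq2 called 1, 1 and 3 under treatment in tumor PMN-MDSC, splenic M-MDSC and tumor M-MDSC, and 2 between cell types in tumor.

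Leaving out each library gave 0 to 10 called members for treatment in splenic PMN-MDSC, 0 to 1 in tumor PMN-MDSC, 0 to 1 in splenic M-MDSC, 0 to 2 in tumor M-MDSC, 0 to 2 between cell types in tumor and 0 to 5 for the treatment interaction in PMN-MDSC, the 10 and the 5 both without the treated splenic PMN-MDSC library of the highest sum. The log2 ratio of sums under treatment ran from -1.22 to 0.46 in splenic PMN-MDSC (0.05 with all) and from -0.32 to 0.23 in splenic M-MDSC (-0.05). From group medians these were -1 and 0.06. With members of at most 50% shared stretches, chosen after seeing the data, the first was 0.00; the second was 0.00 with TMM scaling and 0.02 without Hist1h1c, Hist1h2bc and Hist2h2be. Between cell types in spleen it was -0.75 with TMM scaling (-1.14 without). For bulk tumor it was 0.20 with TMM scaling and 0.16 with few shared stretches (0.46) against PMN-MDSC, and 0.39 (0.76) against M-MDSC.

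Treatment values of named members that reversed without a single library, none of them called, ran for Hist1h4d from -0.27 to 1.4, for Hist1h1c from -1.02 to 0.55 and for Hist2h2aa2 from -0.35 to 0.48 in splenic PMN-MDSC. They ran from -0.06 to 0.19 for Hist1h1c in tumor PMN-MDSC, from -0.11 to 0.45 for Hist2h2aa2 in splenic M-MDSC and from -0.14 to 0.47 for Hist1h1c in tumor M-MDSC. With upper-quartile scaling Hist1h1c stood at -0.02 in splenic PMN-MDSC. Hist1h2be between cell types in tumor (0.89 to 1.06), and Hist1h1e (-0.53) and Hist1h2bg (-1.32 to -1.46) in bulk tumor against M-MDSC, lost their calls without single libraries. Upper-quartile scaling moved the median of all genes to -0.33 between cell types in spleen and to 0.39 and 0.38 in bulk tumor.

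No paired analysis was possible without matching by order, because the columns of the count table carry running numbers that match no label of a mouse. A match by order was not made. Members of few counts limit the tumor groups: untreated tumor M-MDSC libraries held 23 to 58 members with at least 3 counts, others 42 to 64.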
